A study of Mus musculus with 56 samples.

Results

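The genes Cyp17a1, Ctps and Unc119 are 3 of the 21935 genes in a count table of mouse liver RNA, and they were singled out by their response to a low dose of zalfermin. Zalfermin acts through the receptors of the hormone FGF21, of which it is a long-lived analog. In the comparison of low-dose zalfermin with DIO-MASH vehicle, 66 of 14105 tested genes (0.468%) passed the adjusted threshold of 0.05, of which 59 were higher (0.418%) and 7 lower (0.0496%) in the dosed mice. Of these 66 genes, 34 averaged at least 1 CPM (reads scaled to 1000000 reads of a library) over all mice and had no overlap between the 8 dosed and the 8 vehicle mice. Cyp17a1 had the largest rise among the 32 higher genes of that kind, and Ctps and Unc119 were the 2 lower ones. The 3 genes were chosen by these values, and the low-dose comparison is described here without a test. In it, 0.411% of tested genes had no overlap on the higher side and 0.078% on the lower side.

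Male C57BL/6J mice received chow or the AMLN diet (high in fat, cholesterol and fructose), and the AMLN-fed (DIO-MASH) mice entered the study only after a biopsy had shown steatosis and fibrosis. All 56 mice were injected daily for 8 weeks, and the liver RNA of 8 mice in each of 7 groups was sequenced. Chow-fed mice and 1 DIO-MASH group received vehicle. The other DIO-MASH groups received zalfermin at 0.05 mg/kg (low dose) or 0.2 mg/kg (high dose), semaglutide, a GLP-1 receptor agonist, at 3 µg/kg (low dose) or 120 µg/kg (high dose), or the combination. The labels name the combination only by its drugs, the deposited design text describes both drugs at their high doses, and the study's methods give both low doses, which are used here. No genetic alteration is described for any group. Each sample is a piece of whole liver that holds several cell types, so fewer cells of a type and less RNA per cell cannot be told apart in any value below. Mice are numbered 1 to 8 within a group.

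Cyp17a1 encodes steroid 17-alpha-hydroxylase/17,20-lyase, a cytochrome P450 that converts pregnenolone and progesterone toward cortisol precursors and androgens. It is known mainly from steroid-making organs, the gonads among them, and the mouse liver also transcribes it. Ctps encodes CTP synthase, which aminates UTP to CTP, the nucleotide used for RNA, DNA and the activated head groups of phospholipids. Ctps is the main form of the enzyme in dividing cells, and Ctps2 is its paralog. Unc119 encodes a carrier that shields the myristoyl group of lipid-modified proteins such as Src-family kinases and some G protein alpha subunits, and the GTPases ARL2 and ARL3 release its cargo.

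In the GRCm38 mouse genome, Cyp17a1 (ENSMUSG00000003555) lies on the minus strand at chr19:46667165-46673172, Ctps (ENSMUSG00000028633) on the minus strand at chr4:120539868-120570276, and Unc119 (ENSMUSG00000002058) on the plus strand at chr11:78343482-78349164. None of the 3 overlaps another gene of the GENCODE M21 annotation, and all are protein coding. Ctps and Unc119 fell in the same groups of mice, and the bases just before the start of each gene are shown for that reason. Both runs come from RefSeq (GRCm38.p6), end at the base before the first annotated exon, and carry in capitals each match to GGGCGG or its reverse complement. The Ctps run is the minus strand of chr4:120570277-120570526 and the Unc119 run the plus strand of chr11:78343245-78343481.
Ctps: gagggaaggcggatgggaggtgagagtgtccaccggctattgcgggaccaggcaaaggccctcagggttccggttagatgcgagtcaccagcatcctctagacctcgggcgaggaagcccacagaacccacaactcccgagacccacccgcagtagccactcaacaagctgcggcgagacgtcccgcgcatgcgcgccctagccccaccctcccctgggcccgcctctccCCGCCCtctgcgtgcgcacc
Unc119: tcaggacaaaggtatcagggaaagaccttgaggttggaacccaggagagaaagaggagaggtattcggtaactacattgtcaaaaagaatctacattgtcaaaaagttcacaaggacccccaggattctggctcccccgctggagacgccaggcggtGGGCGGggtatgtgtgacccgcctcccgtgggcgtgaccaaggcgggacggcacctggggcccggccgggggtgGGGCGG
The GC content was 67.6% in the Ctps run and 59.9% in the Unc119 run. GGGCGG (the core of a GC box) was found 1 time before Ctps and 2 times before Unc119, and 32.7% of 32851 promoter windows of 250 bases and 30.9% of those of 237 bases hold it on either strand. The TATA box (TATAAA), the CCAAT box, an E box (CACGTG), a nuclear receptor core site (AGGTCA), the cAMP response element (TGACGTCA), an amino acid response core (TGATGNAAT) and a STAT site (TTCNNNGAA) were searched on both strands and matched in neither run. In windows of 250 bases, their shares ran from 0.816% for TGATGNAAT to 33.9% for the CCAAT box. The promoter table has no entry for Cyp17a1.

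The deposited counts summed to between 5228187 and 20885786 reads per mouse, with a median of 12206788, and edgeR's normalized library sizes were used for CPM. Over all mice, Cyp17a1 had 17 to 1748 reads, Ctps 19 to 301 reads and Unc119 28 to 255 reads, so that none of them reached 0 in any mouse. Across genes, the lowest mean Spearman correlation of a mouse with its own group was 0.947, for chow mouse 8, followed by 0.967 for low-dose semaglutide mouse 6. The other mice of the low-dose semaglutide group were at 0.981 or above. The study left out 1 mouse of this group that the labels do not mark. All 56 mice were used, and the comparisons with chow or low-dose semaglutide are also given without chow mouse 8 or low-dose semaglutide mouse 6.

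The level of Cyp17a1 was lowest in chow-fed mice and highest under high-dose zalfermin. In DIO-MASH vehicle mice it ran from 7.11 to 27.05 CPM with a median of 10.9 CPM, and in chow-fed mice from 3.70 to 26.5 CPM with a median of 9.83 CPM. Under low-dose zalfermin it ran from 33.2 to 75.2 CPM with a median of 48.4 CPM. Under high-dose zalfermin it ran from 50.1 to 147 CPM with a median of 74.8 CPM. Every mouse of either zalfermin dose was above every vehicle mouse, and the ranges of the 2 doses overlapped. The combination had a median of 71.5 CPM and a range of 17.6 to 124 CPM, and its lowest mouse (mouse 3) was the only one of the 8 inside the vehicle range. Low-dose semaglutide mice had 7.67 to 35.1 CPM (median 22.6 CPM), and high-dose semaglutide mice 12.8 to 82.4 CPM (median 28.4 CPM). Both semaglutide ranges overlapped that of vehicle.

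The level of Ctps followed another order, highest in DIO-MASH vehicle and lowest in chow-fed mice. Vehicle mice had 10.96 to 17.3 CPM with a median of 12.6 CPM, and chow-fed mice 2.63 to 6.92 CPM with a median of 3.93 CPM. Low-dose zalfermin mice had 5.29 to 10.6 CPM (median 6.70 CPM). High-dose zalfermin mice had 2.86 to 8.10 CPM (median 4.33 CPM). Both zalfermin ranges lay below the vehicle range, and the high dose overlapped chow. The combination had 4.11 to 9.64 CPM (median 5.66 CPM), and high-dose semaglutide 4.87 to 8.10 CPM (median 7.37 CPM), both again below all vehicle mice. On this lower side, 1.89% of tested genes had no overlap with vehicle in the combination and 0.255% under high-dose semaglutide. Low-dose semaglutide mice spread from 4.93 CPM in mouse 6 to 18.1 CPM in mouse 8, around a median of 9.95 CPM, and this range crossed that of vehicle.

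Unc119 was likewise highest in DIO-MASH vehicle, but lowest under high-dose zalfermin rather than in chow. Vehicle mice had 11.9 to 23.8 CPM with a median of 17.1 CPM. Low-dose zalfermin mice had 5.29 to 10.6 CPM (median 9.68 CPM), and high-dose zalfermin mice 3.52 to 6.94 CPM (median 5.52 CPM). The zalfermin groups lay below the whole vehicle range, as did the combination at 4.06 to 8.93 CPM (median 7.27 CPM), where 1.89% of tested genes had no overlap on the lower side. High-dose semaglutide mice had 5.14 to 11.3 CPM (median 10.3 CPM), also below all vehicle mice. Low-dose semaglutide mice had 7.27 to 14.1 CPM (median 12.6 CPM). Chow-fed mice had 5.93 to 15.7 CPM (median 7.64 CPM), and 1 of them, mouse 3, lay inside the vehicle range.

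**Figure D1:**
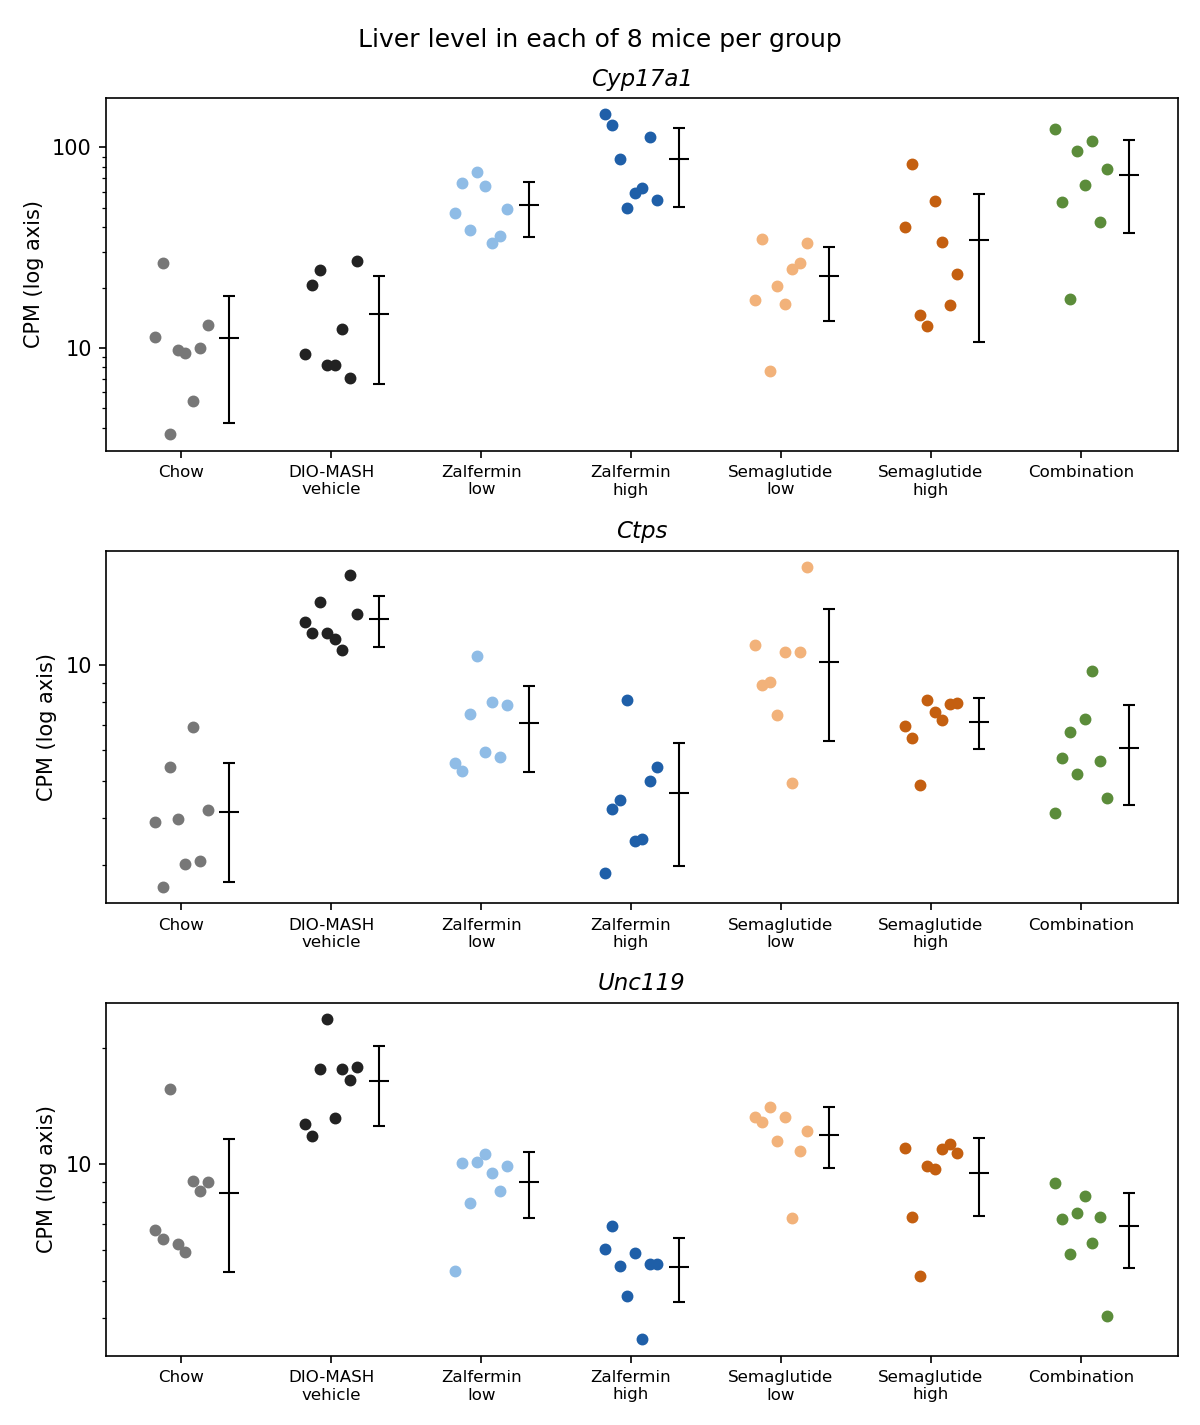
CPM (log axis) of Cyp17a1, Ctps and Unc119 in each mouse, 8 per group, as points, with the mean and SD of the group as a bar beside them. Cyp17a1 stands above all vehicle mice in both zalfermin groups (33.2 CPM or more against 27.05 CPM or less), while Ctps and Unc119 stand below all vehicle mice in both (10.6 CPM or less against 10.96 and 11.9 CPM or more). For the low dose, this separation was part of how the genes were chosen. For the high dose, 2.33% of tested genes had no overlap on the higher side and 2.47% on the lower side.

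Ordered by mean CPM from high to low, Cyp17a1 ran from high-dose zalfermin (87.8 ± 37.5, SD, n = 8) through the combination (73.1 ± 35.5), low-dose zalfermin (51.3 ± 15.6), high-dose semaglutide (34.7 ± 23.99), low-dose semaglutide (22.7 ± 9.17) and vehicle (14.7 ± 8.08) to chow (11.1 ± 6.90). Ctps ran from vehicle (13.2 ± 2.01) through low-dose semaglutide (10.2 ± 3.85), high-dose semaglutide (7.13 ± 1.07), low-dose zalfermin (7.06 ± 1.79), the combination (6.09 ± 1.77) and high-dose zalfermin (4.63 ± 1.63) to chow (4.14 ± 1.42). Unc119 ran from vehicle (16.4 ± 3.85) through low-dose semaglutide (11.9 ± 2.14), high-dose semaglutide (9.503 ± 2.17), low-dose zalfermin (8.995 ± 1.74), chow (8.44 ± 3.18) and the combination (6.93 ± 1.52) to high-dose zalfermin (5.43 ± 1.02). In none of the 3 orders did neighboring groups differ at an adjusted p under 0.05 in edgeR's quasi-likelihood test. The spread between mice was widest for Cyp17a1, whose SD was 30.4% to 69.2% of the group mean. For Ctps and Unc119 the SD was between 15.0% and 37.8% of the mean.

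Per kilobase of annotated exon sequence, Cyp17a1 averaged 5.30 CPM in vehicle and 31.7 CPM under high-dose zalfermin. Ctps averaged 3.98 CPM per kilobase in vehicle and 1.40 under high-dose zalfermin, and Unc119 6.70 and 2.22. On this scale the vehicle liver held similar levels of the 3 transcripts, between 3.98 and 6.70 CPM per kilobase. Under high-dose zalfermin the level of Cyp17a1 stood far above the other two.

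The differences between low-dose zalfermin and vehicle, which chose the genes, were 1.80 for Cyp17a1 (a fold of 3.49), -0.91 for Ctps (a fold of 0.534) and -0.87 for Unc119 (a fold of 0.548) on the log2 scale. Just behind Cyp17a1 among the non-overlapping rises were Got1, the cytosolic aspartate aminotransferase, at 1.01 and Oat, ornithine aminotransferase, at 0.996. Cnmd, at 1.71, was the next largest rise in size, but its groups overlapped. Outside the choice on the falling side were 5 genes whose groups overlapped, namely Meltf (-2.26, at a mean of 0.325 CPM), Limk1 (-1.01), Scamp5 (-0.75), Tc2n (-0.71) and Fbxw9 (-0.38). The low-dose difference was 69.9% of the high-dose one for Cyp17a1, 59.9% for Ctps and 54.8% for Unc119 on the log2 scale. Both differences were taken against the same vehicle mice. The genes were chosen for their low-dose differences, so these percentages can run too high and are no estimate of a dose response.

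The comparison of the combination with low-dose semaglutide adds the low zalfermin dose to another drug, in 16 mice that did not take part in choosing the genes. The study reports more weight loss in the combination than under low-dose semaglutide, and the part of weight loss in these differences was not tested. All 3 genes passed the test in edgeR, where 4.21% of the tested genes passed in either direction (1.93% higher, 2.28% lower). Cyp17a1 rose by 1.68 ± 0.36 on the log2 scale (SE), a fold of 3.21 with a 95% interval of 1.96 to 5.27 (adjusted p = 0.00256), and 7 of 8 combination mice were above every low-dose semaglutide mouse. Ctps fell by 0.75 ± 0.19 (adjusted p = 0.0126), to a fold of 0.593 with an interval of 0.456 to 0.773. Only 2 of 8 combination mice were below every low-dose semaglutide mouse for Ctps. Unc119 fell by 0.77 ± 0.17 (adjusted p = 0.00341), to a fold of 0.585 (0.463 to 0.738), with 4 of 8 combination mice below every low-dose semaglutide mouse. Without low-dose semaglutide mouse 6, the 3 differences were 1.70, -0.85 and -0.85 (adjusted p = 0.00205, 0.00174 and 0.00052 in edgeR). Ctps no longer passed without low-dose semaglutide mouse 8 (-0.57, edgeR adjusted p = 0.0758) or when only the 16 mice compared were fitted (-0.75, adjusted p = 0.0787).

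The mouse numbers in the labels form runs, named series A to D, and no source says what a run stands for. Within series A, B and C, the mean log2 CPM of Cyp17a1 in the combination minus low-dose semaglutide was 1.71, 2.04 and 0.95. For Unc119 it was -0.81, -0.44 and -1.06. For Ctps it was -0.74, 0.19 and -1.45, so that series B, with 2 mice of each group and low-dose semaglutide mouse 6 among them, had no fall. Series D held no mouse of these groups.

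The high zalfermin dose was compared with the same vehicle mice that had entered the choice. Cyp17a1 rose by 2.58 ± 0.37 on the log2 scale (edgeR adjusted p = 8.92e-07), a fold of 5.98. Ctps fell by 1.51 ± 0.19 (adjusted p = 1.01e-07) and Unc119 by 1.58 ± 0.17 (adjusted p = 2.64e-09), to 0.351 and 0.334 of the vehicle level. For each gene, all 8 high-dose mice lay outside the vehicle range, where 2.33% of tested genes had no overlap on the higher side and 2.47% on the lower side. The share of genes past the threshold was 17.2% in this comparison (8.54% higher, 8.68% lower). Within series A, B and C the difference was 3.08, 2.25 and 3.04 for Cyp17a1, -1.69, -1.43 and -1.38 for Ctps, and -0.99, -1.92 and -1.60 for Unc119.

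The step from the low to the high zalfermin dose was tested against the low-dose mice that had chosen the genes. Unc119 fell by a further 0.71 ± 0.17 (edgeR adjusted p = 0.0169), with 1.84% of genes passing (0.447% higher, 1.4% lower). Without high-dose zalfermin mouse 6, this fall was 0.64 and its adjusted p was 0.0528. The step was 0.78 for Cyp17a1 (95% interval 0.08 to 1.47, adjusted p = 0.289) and -0.61 for Ctps (-1.001 to -0.21, adjusted p = 0.102), and neither passed. Without high-dose zalfermin mouse 4, Ctps passed at -0.75 (adjusted p = 0.0353). In series B, Cyp17a1 stood lower at the high dose, by -0.29 on the log2 scale, and in series A and C it stood higher by 1.25 and 1.003. Unc119 differed by -0.29, -1.16 and -0.73 in series A, B and C, and Ctps by -0.65, -0.75 and -0.45.

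The semaglutide doses were set against the same vehicle mice. High-dose semaglutide passed the test for each gene (2.43% of tested genes passed, 1.43% higher and 1% lower), with Ctps falling by 0.89 ± 0.19 (edgeR adjusted p = 0.00715) and Unc119 by 0.78 ± 0.16 (adjusted p = 0.00715). All 8 high-dose semaglutide mice were below every vehicle mouse for Ctps and for Unc119, where 0.255% of tested genes had no overlap on the lower side. Cyp17a1 was 1.24 ± 0.36 higher (adjusted p = 0.0486), with 4 of 8 mice above every vehicle mouse. Within series A, B and C the differences were 1.01, 1.84 and 1.04 for Cyp17a1, -0.94, -0.78 and -0.78 for Ctps, and -0.61, -0.77 and -0.63 for Unc119. The Cyp17a1 call was lost when any 1 of 15 mice was left out and with 3 other settings, and without high-dose semaglutide mouse 2, which had the highest level, the difference was 0.92 (adjusted p = 0.207). Low-dose semaglutide passed for none of the 3 genes, at 0.63 for Cyp17a1 (95% interval -0.09 to 1.35), -0.37 for Ctps (-0.74 to -0.0018) and -0.45 for Unc119 (-0.78 to -0.13). In that comparison edgeR called 0 of 14105 genes (0%), 1222 genes had an unadjusted p under 0.05, among them 2 of the 3 members, and DESeq2 called 32 genes but no member. Without low-dose semaglutide mouse 6 these values were 0.61, -0.27 and -0.38. The 2 semaglutide doses did not differ at the threshold for any of the 3 genes. There edgeR and DESeq2 each called 0 genes, and 549 genes had an unadjusted p under 0.05, among them 1 member, Ctps (-0.52, 95% interval -0.89 to -0.14). Without low-dose semaglutide mouse 6, the high dose minus the low dose was 0.62 for Cyp17a1, -0.61 for Ctps and -0.40 for Unc119.

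At the high doses the drugs were also set against each other, in mice that took no part in the choice. Unc119 was lower under zalfermin than under semaglutide by 0.80 ± 0.17 on the log2 scale (edgeR adjusted p = 0.0143), in a comparison where 0.447% of genes passed (0.135% higher, 0.312% lower). Ctps differed by -0.63 (95% interval -1.02 to -0.23, adjusted p = 0.146), and Cyp17a1 by 1.34 (0.64 to 2.04, adjusted p = 0.0562). Cyp17a1 passed with DESeq2 (adjusted p = 0.0305), with the number series as covariate (1.37, edgeR adjusted p = 0.0397) and when 1 of 4 mice was left out, namely high-dose semaglutide mouse 2 or 5, high-dose zalfermin mouse 4 or low-dose semaglutide mouse 6. Ctps passed without high-dose zalfermin mouse 4 (-0.77, adjusted p = 0.0469). Within series A, B and C, Unc119 differed by -0.38, -1.15 and -0.97.

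Against vehicle the combination had differences of 2.32 ± 0.37 for Cyp17a1 (edgeR adjusted p = 5.17e-06), -1.12 ± 0.19 for Ctps (adjusted p = 1.64e-05) and -1.23 ± 0.17 for Unc119 (adjusted p = 2.89e-07), with 20.9% of genes passing (10% higher, 10.9% lower). These use the vehicle mice of the choice, too. The sums of the 2 low-dose differences were 2.43, -1.27 and -1.32. The interaction of the low doses on the log2 scale was -0.12 for Cyp17a1 (95% interval -1.11 to 0.88), 0.15 for Ctps (-0.38 to 0.69) and 0.09 for Unc119 (-0.38 to 0.56), with edgeR adjusted p from 0.988 to 0.999, and 2 of 14105 genes passed (0.0142%, both lower), against 952 at an unadjusted p under 0.05 and 14 by DESeq2. No member had an unadjusted p under 0.05 there, DESeq2 called none of them, and the interval of Cyp17a1 reached more than 1 log2 unit to the negative side. Without low-dose semaglutide mouse 6 the interaction was -0.10, 0.056 and 0.019. Of the 4 groups in it, low-dose zalfermin and vehicle had entered the choice. That choice can make the sums too large in size and move the interaction toward the sign opposite to the low-dose difference. The combination did not differ at the threshold from low-dose zalfermin for any member (0.51, -0.22 and -0.36, where 6.62% of genes passed, 3.27% higher and 3.35% lower), nor from high-dose zalfermin (-0.26, 0.39 and 0.36, where 0.503% passed, 0.326% higher and 0.177% lower). In each of these 2 comparisons 1 member, Unc119, had an unadjusted p under 0.05 and DESeq2 called none.

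**Figure D2:**
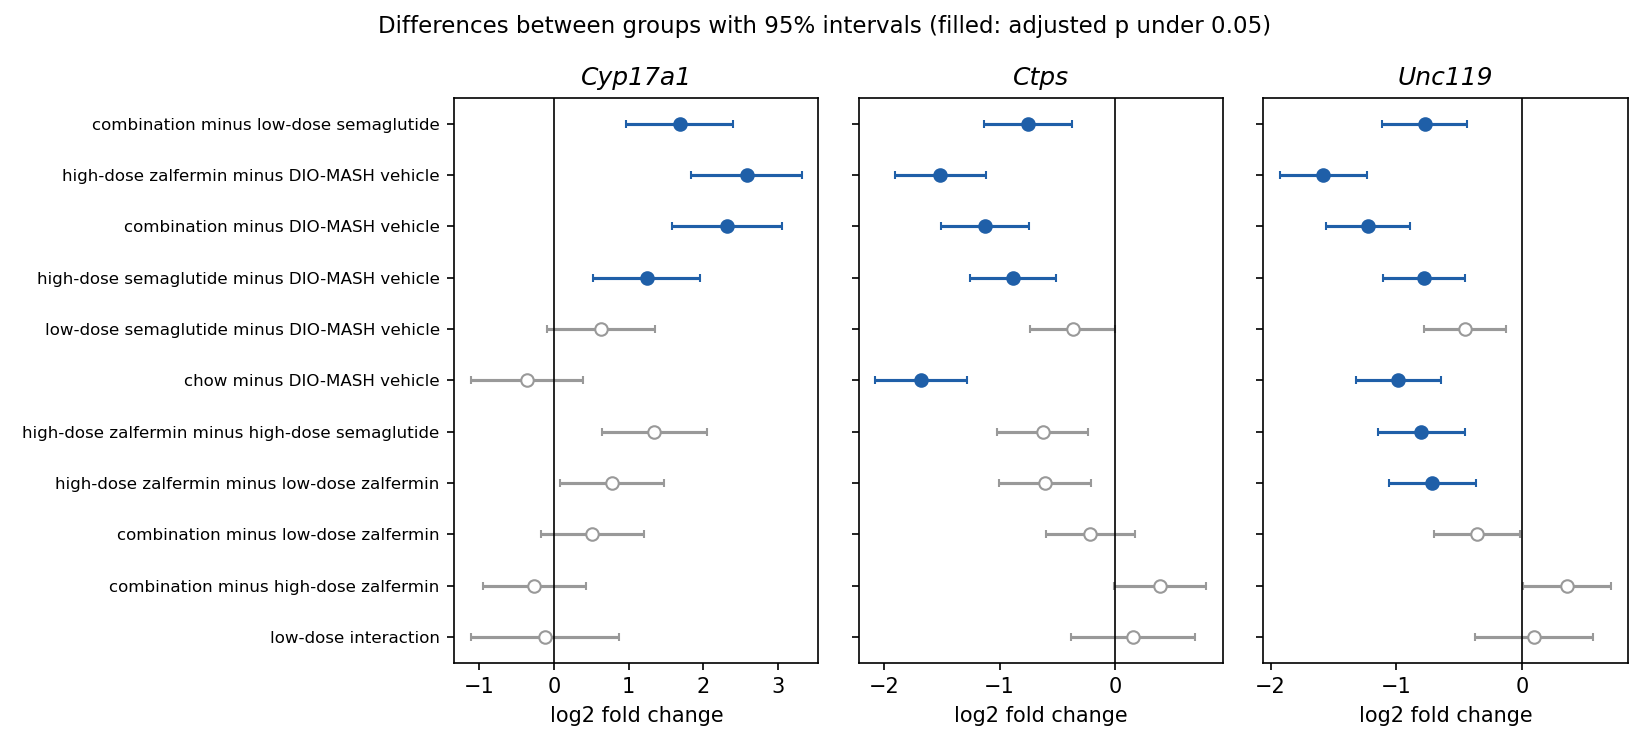
Log2 fold changes of each gene with 95% intervals from the edgeR fit, 1 row per comparison, filled where the adjusted p was under 0.05. The 3 genes passed in the combination minus low-dose semaglutide (1.68, -0.75 and -0.77) and in 3 comparisons with vehicle, and the interaction interval covers 0 for each.

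Chow-fed mice were compared with the vehicle mice that had entered the choice. Ctps was lower in chow than in vehicle by 1.68 ± 0.20 (edgeR adjusted p = 5.96e-10) and Unc119 by 0.98 ± 0.17 (adjusted p = 2.41e-06), in a comparison where 55.4% of genes passed (26.5% higher, 28.9% lower). Cyp17a1 differed by -0.36 with a 95% interval of -1.11 to 0.38 (adjusted p = 0.419). Without chow mouse 8 these values were -1.68, -1.004 and -0.39. The sign for Cyp17a1 was not the same in every series, at 0.31 in series A, -1.64 in series B with 1 chow mouse, and -0.24 in series C. Ctps differed by -1.92, -1.21 and -1.62 and Unc119 by -0.88, -0.18 and -1.28 in the same series.

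Set against chow, high-dose zalfermin left Cyp17a1 higher by 2.94 ± 0.38 (adjusted p = 5.54e-08 in edgeR, 37.2% of genes passing, 19.7% higher and 17.6% lower), a fold of 7.69. Ctps differed from chow by 0.17 (95% interval -0.25 to 0.58, adjusted p = 0.553), and Unc119 was below chow by 0.60 ± 0.18 (adjusted p = 0.00618). In the combination, Cyp17a1 was above chow by 2.68 ± 0.38 (adjusted p = 3.66e-07), with 32.4% of genes passing (17.4% higher, 15% lower). Ctps was above chow by 0.56 ± 0.20 (adjusted p = 0.0291), and Unc119 differed by -0.24 (-0.59 to 0.10, adjusted p = 0.292). Without chow mouse 8, high-dose zalfermin minus chow was 2.97, 0.17 and -0.58 for Cyp17a1, Ctps and Unc119, and the combination minus chow was 2.71, 0.56 and -0.22. The Ctps call in the combination was lost without chow mouse 2, 5 or 7 or combination mouse 5 or 6, at values of 0.44 to 0.52.

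The levels of the 3 genes were also set against each other mouse by mouse, as a description. Over 56 mice the Pearson correlation of log2 CPM between Ctps and Unc119 was 0.72 (0.77 without chow), and after the group means were subtracted it was 0.35. Cyp17a1 correlated with Unc119 at -0.49 and with Ctps at -0.27, and without the chow mice at -0.63 and -0.65. After the group means were subtracted these were -0.06 and -0.21. The last pair shows what the chow group adds, since chow-fed mice were low for both Cyp17a1 and Ctps. All these values share the libraries, their depth and the group differences that chose the genes.

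**Figure D3:**
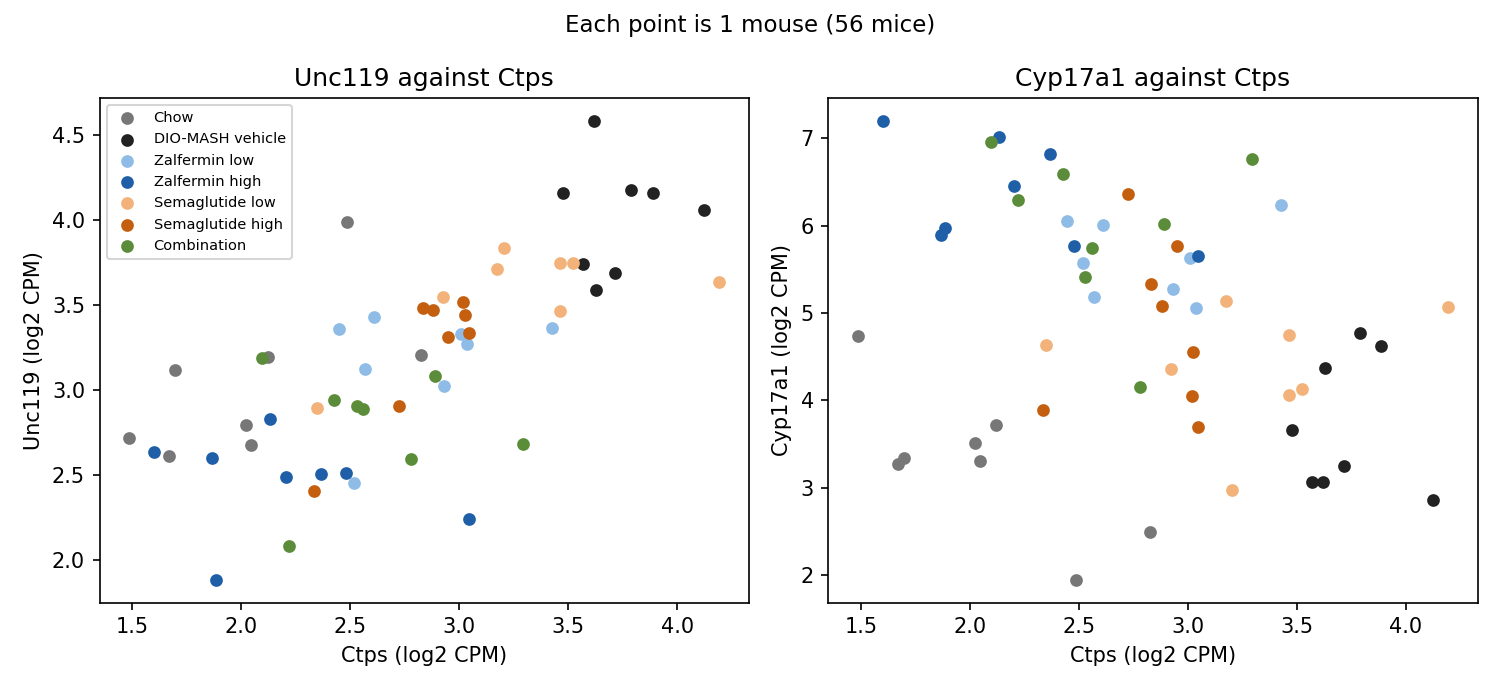
Log2 CPM of Unc119 (left) and Cyp17a1 (right) against that of Ctps, with 1 point per mouse colored by group (56 mice). Unc119 rises with Ctps (Pearson r = 0.72), and on the right the chow mice lie at the lower left, apart from the treated mice that are low for Ctps and high for Cyp17a1.

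Markers of the steroid-making cells of the adrenal cortex and testis were read in these livers. Of 9 such markers, Cyp11b1, Cyp11b2, Mc2r and Lhcgr had 0 reads in all 56 mice, and Cyp11a1, Hsd3b6, Nr5a1 and Insl3 had at most 2 reads in any mouse. Only Cyp21a1, steroid 21-hydroxylase, had more, with up to 114 reads. Its reads summed to 399 over the 8 vehicle mice (21 to 114 per mouse), to 19 in chow and to 119 under low-dose zalfermin. They fell to 6 under high-dose zalfermin, with 5 of 8 mice at 0, and to 10 in the combination, with 6 of 8 at 0. Low-dose semaglutide mice summed to 130 reads, of which mouse 4 held 83, and high-dose semaglutide mice to 42. Cyp21a1 passed the test in the combination against low-dose semaglutide (adjusted p = 0.00429) and under high-dose zalfermin against vehicle (adjusted p = 2.22e-07). The former call was lost when low-dose semaglutide mouse 4 was left out (edgeR adjusted p = 0.0593). The mouse genome holds a near-identical pseudogene beside Cyp21a1, so these counts are uncertain. Whether tissue of the adrenal cortex or testis added to the Cyp17a1 reads was not tested.

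The genes that supply CYP17A1 with substrate and electrons were read next, beside the 4.21% of all genes that passed in the combination against low-dose semaglutide and the 17.2% under high-dose zalfermin against vehicle. Of 5 tested genes for cholesterol delivery and side-chain cleavage, 0 passed in the combination against low-dose semaglutide by edgeR or DESeq2, with 0 at an unadjusted p under 0.05. Under high-dose zalfermin against vehicle, Fdx1 (ferredoxin, an electron donor of mitochondrial P450s) rose by 0.42 ± 0.11 (adjusted p = 0.00545) and Tspo (a cholesterol-binding mitochondrial protein) fell by 0.31 ± 0.09 (adjusted p = 0.0173). Of 4 electron donors and partners of CYP17A1, Por, the P450 reductase, rose from 572 ± 202 to 1081 ± 235 CPM under high-dose zalfermin (0.92 ± 0.20 on the log2 scale, adjusted p = 0.000923). In the combination Por was at 0.43 (adjusted p = 0.249), and 0 of the 4 passed with either tool, with 1 at an unadjusted p under 0.05.

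Of 16 tested genes of steroid conversion, 2 rose and 2 fell in the combination against low-dose semaglutide (median 0.05, against -0.02 for all genes, of which 1.93% rose and 2.28% fell), and 1 of these falls was that of Cyp21a1. Under high-dose zalfermin 5 rose and 2 fell (median 0.32, against -0.02 for all genes, of which 8.54% rose and 8.68% fell). Akr1d1, the 5-beta-reductase of steroid and bile acid metabolism, rose by 0.91 ± 0.17 and 1.26 ± 0.17 in the 2 comparisons (adjusted p = 0.000687 and 4.39e-07). Hsd11b1, which regenerates active glucocorticoid, rose by 0.64 ± 0.20 and 1.23 ± 0.20 (adjusted p = 0.0478 and 7.02e-06). Srd5a3, a polyprenol reductase of protein glycosylation despite its name, fell by 0.38 ± 0.11 and 0.68 ± 0.11 (adjusted p = 0.0292 and 7.46e-06). Hsd3b5, a 3-ketosteroid reductase of male mouse liver named here after its values were seen, had the widest spread and did not pass in either comparison (-4.80 and 1.93, adjusted p = 0.109 and 0.382). Beside these, the summed CPM of 8 hepatocyte markers had a median of 69306 in vehicle (59017 to 80983), 100682 under high-dose zalfermin (76612 to 134024), 80517 under low-dose semaglutide (69779 to 112496) and 111577 in the combination (83397 to 132675), and all 8 markers passed as higher under high-dose zalfermin (median 0.59). The sum had its highest median in chow-fed mice, at 155235 (144482 to 232286). Cyp17a1 did not differ between chow and vehicle at the threshold (edgeR adjusted p = 0.419). In the combination against low-dose semaglutide 3 of the 8 passed as higher (median 0.36). Their part in the Cyp17a1 rise was not tested.

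Around Ctps, of 9 tested genes of the de novo route up to UTP, 0 passed by edgeR or DESeq2, with 0 at an unadjusted p under 0.05 in the combination (median -0.01) and 1 under high-dose zalfermin (median -0.19). With 4.21% and 17.2% of all genes passing in these comparisons, 0 of 9 is near the background. The paralog Ctps2 had 21.3 ± 2.05 CPM in vehicle and 15.98 ± 3.16 CPM under high-dose zalfermin, a fall of 0.41 ± 0.14 (adjusted p = 0.0405). In the combination Ctps2 was at -0.31 against low-dose semaglutide (adjusted p = 0.24). On the scale per kilobase of exon, Ctps2 stood at 4.51 and Ctps at 3.98 CPM in vehicle, and under high-dose zalfermin at 3.39 and 1.40.

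Of 13 tested genes of pyrimidine salvage and breakdown, 5 rose and 0 fell in the combination (median 0.35), and 7 rose and 0 fell under high-dose zalfermin (median 0.59). Of all genes 1.93% rose and 2.28% fell in the former comparison, and 8.54% rose and 8.68% fell in the latter. In the combination against vehicle 6 rose and 2 fell. Upp2, a uridine phosphorylase of liver, rose by 1.89 ± 0.36 under high-dose zalfermin (adjusted p = 0.000108) and was at 0.00 in the combination. Dpyd, which begins pyrimidine breakdown, rose by 0.58 ± 0.14 and 1.05 ± 0.14 (adjusted p = 0.00909 and 3.15e-07). Slc29a1, a nucleoside transporter, rose by 0.57 ± 0.10 and 1.03 ± 0.10 (adjusted p = 0.000258 and 3.96e-10). Tk1, thymidine kinase of the cytosol, rose by 0.68 ± 0.21 and 1.03 ± 0.21 (adjusted p = 0.0464 and 0.000235). Dpys and Upb1, the next steps after Dpyd, made up the 5 that rose in the combination (0.35 and 0.40) and were named after their values were seen. Uck2 was the remaining riser under high-dose zalfermin (0.72), also named after its value was seen.

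The next lists stand beside the same shares of all genes, 1.93% higher and 2.28% lower in the combination against low-dose semaglutide, and 8.54% and 8.68% under high-dose zalfermin. Among 8 genes of deoxynucleotide synthesis, Rrm1 (ribonucleotide reductase) fell by 0.54 ± 0.13 (adjusted p = 0.00234) and Dctpp1 (a dCTP pyrophosphatase) rose by 0.42 ± 0.12 (adjusted p = 0.00834) under high-dose zalfermin. None of the 8 passed in the combination by edgeR or DESeq2, with 1 at an unadjusted p under 0.05. Of 15 genes that build phospholipids with CTP, 2 rose in the combination, led by Chka, choline kinase alpha, at 1.10 ± 0.25 (adjusted p = 0.00458). Under high-dose zalfermin 3 rose and 2 fell, with Etnk2, ethanolamine kinase 2, at 0.88 ± 0.14 (adjusted p = 6.81e-06), Pgs1, of cardiolipin synthesis, at -0.54 ± 0.15 (adjusted p = 0.00752) and Chkb, choline kinase beta, at -0.45 ± 0.09 (adjusted p = 0.000247). The 9 markers of cycling cells had a median summed level of 82.6 CPM in vehicle (63.9 to 123 CPM), 46.5 CPM under high-dose zalfermin (38.6 to 66.2 CPM), 57.2 CPM under low-dose semaglutide (36.2 to 80.7 CPM), 42.2 CPM in the combination (27.3 to 64.8 CPM) and 29.9 CPM in chow (27.4 to 48.5 CPM). Of them 8 fell under high-dose zalfermin and 1 fell in the combination against low-dose semaglutide. Their part in the fall of Ctps was not tested.

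**Figure D4:**
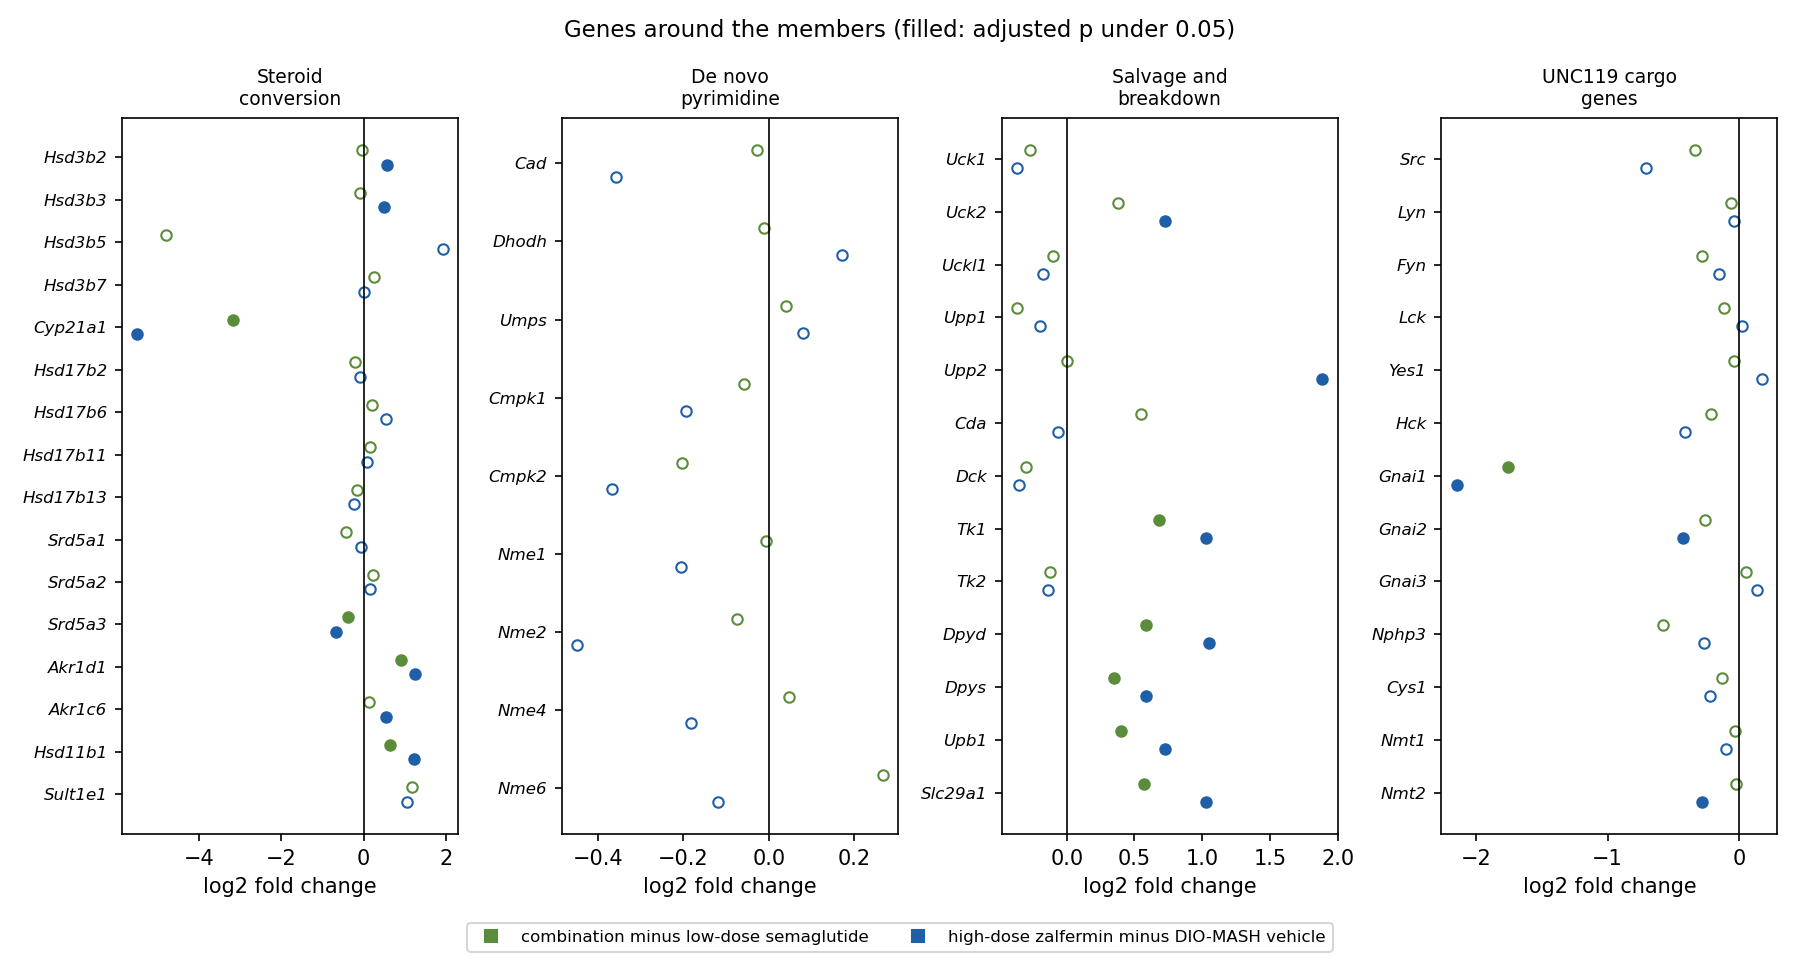
Log2 fold change (horizontal axis, its range differs between panels) of each tested gene of 4 lists, for the combination minus low-dose semaglutide in green and high-dose zalfermin minus DIO-MASH vehicle in blue, filled where the edgeR adjusted p was under 0.05. None of 9 de novo genes is filled, while 5 (green) and 7 (blue) of 13 salvage and breakdown genes are filled and higher.

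Around Unc119, its paralog and a related carrier were read. Unc119b, the paralog, had 29.2 ± 3.15 CPM in vehicle, 23.4 ± 4.24 CPM under high-dose zalfermin and 28.9 ± 3.30 CPM in the combination. It fell by 0.31 ± 0.10 under high-dose zalfermin (adjusted p = 0.0198) and was at 0.01 in the combination against low-dose semaglutide (adjusted p = 0.98). Pde6d, a carrier of prenylated proteins, passed in neither comparison (0.02 and -0.33, adjusted p = 0.964 and 0.085). Per kilobase of exon, Unc119 and Unc119b stood at 6.70 and 6.34 CPM in vehicle, and at 2.22 and 5.09 CPM under high-dose zalfermin.

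Of 13 genes for myristoylated cargo and the myristoyltransferases, 1 fell in the combination and 3 fell under high-dose zalfermin, and 0 rose in either, where 2.28% and 8.68% of all genes fell. Gnai1, an inhibitory G protein alpha subunit, fell by 1.76 ± 0.23 in the combination (adjusted p = 1.06e-06) and by 2.15 ± 0.23 under high-dose zalfermin (adjusted p = 2.64e-09), from 28.03 ± 7.07 CPM in vehicle to 6.35 ± 1.74 CPM. Gnai2 fell by 0.42 ± 0.11 (adjusted p = 0.00349) and Nmt2, a myristoyltransferase, by 0.28 ± 0.09 (adjusted p = 0.0253) under high-dose zalfermin. Of the 6 genes for release GTPases and their regulators, Arl13b rose by 0.57 ± 0.21 and Arl2bp and Tbcd fell by 0.63 ± 0.18 and 0.24 ± 0.09 under high-dose zalfermin (adjusted p = 0.0473, 0.00948 and 0.0397), with 17.2% of all genes passing. None of the 6 passed in the combination by edgeR, with 2 at an unadjusted p under 0.05 and 1 called by DESeq2, and Tbcd was at -0.27 (edgeR adjusted p = 0.0565). Markers of macrophages and stellate cells had their highest medians in vehicle and lowest in chow, as did Ctps. The summed level of 6 macrophage markers had a median of 163 CPM in vehicle (145 to 208 CPM), 92.3 CPM under high-dose zalfermin (46.9 to 121 CPM), 128 CPM under low-dose semaglutide (36.95 to 156 CPM), 97.7 CPM in the combination (45.9 to 229 CPM) and 34.3 CPM in chow (19.1 to 40.1 CPM). That of 8 stellate cell markers was 921, 584, 678, 470 and 224 CPM in the same groups. Under high-dose zalfermin 4 of 6 macrophage and 3 of 8 stellate markers fell, and 0 of 6 and 2 of 8 fell in the combination against low-dose semaglutide. Their part in the falls of Unc119 and Ctps was not tested.

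Of 6 genes for FGF21, its co-receptor and FGF receptors, 2 rose and 1 fell under high-dose zalfermin, where 8.54% of all genes rose and 8.68% fell. Fgfr4 is not among the receptors through which the study says FGF21 signals. Klb, the obligate co-receptor, rose by 0.78 ± 0.15 (adjusted p = 8e-05), Fgfr4 rose by 0.44 ± 0.12 (adjusted p = 0.00718), and Fgf21 itself fell by 1.10 ± 0.40 (adjusted p = 0.0478). In the combination against low-dose semaglutide 0 of the 6 passed by edgeR or DESeq2, where 4.21% of all genes passed by edgeR, with 1 at an unadjusted p under 0.05.

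The genes with the most similar pattern to each member were sought among 11875 genes that averaged at least 1 CPM, by the Pearson correlation of log2 CPM over 56 mice. For Cyp17a1 they were As3mt, an arsenic methyltransferase (r = 0.86), Acnat2, an acyltransferase of bile acids and fatty acids (0.77), Slc2a4, the glucose transporter GLUT4 (0.74), and Slc22a29, an organic anion transporter (0.72). The lowest were Plcg1 (-0.75) and Ugt2b35 (-0.75). After the group means were subtracted, Slc23a1, a vitamin C transporter (0.73), and As3mt (0.68) were highest. As3mt differed by 0.35 in the combination against low-dose semaglutide and by 0.51 under high-dose zalfermin.

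As3mt is also a neighbor of Cyp17a1, with 34285 bases between the 2 genes on chromosome 19, and this was noticed after its correlation was seen. Of 6 tested protein-coding genes within 100 kb of Cyp17a1, Borcs7 (0.59, and 0.60 after group means were subtracted) and As3mt had the highest correlations with it, and the lowest was Cnnm2 (-0.25). As3mt and Sfxn2 passed the test in both comparisons, and Sfxn2 rose by 0.62 under high-dose zalfermin. Of all genes, 4.21% passed in the combination against low-dose semaglutide and 17.2% under high-dose zalfermin against vehicle. Borcs7 lies between Cyp17a1 and As3mt and did not pass (-0.02 and 0.07). The correlations within 100 kb ran from 0.20 to 0.36 over 2 genes for Ctps, and from -0.32 to 0.39 over 8 genes for Unc119. Near Ctps 0 genes passed in either comparison. Near Unc119 0 passed in the combination and 1 under high-dose zalfermin, Spag5 (-1.39, edgeR adjusted p = 0.0488, at a mean of 0.508 CPM). These values share libraries and depth, and genes that lie close together are not independent.

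For Ctps the closest genes were Plekha1, a phosphoinositide-binding adaptor (0.86), 2010003K11Rik (0.83), Tubb6, a beta tubulin (0.83), and Limk1, a kinase of the actin cytoskeleton (0.81). The most opposed were Serpind1, heparin cofactor II (-0.89), and Slc38a4, an amino acid transporter (-0.89), both made by hepatocytes. Frmd8 (0.79) and Dapk2 (0.75) were closest after the group means were subtracted. For Unc119 the closest were Scamp5, a secretory carrier membrane protein (0.84), Psmd8, a proteasome subunit (0.80), Srd5a3 (0.79) and Nap1l1, a histone chaperone (0.78). Slc29a1 was among the genes most opposed to Unc119 (-0.83), and within groups Mgat4b (0.73) and Rtn4 (0.69) were closest. Limk1 and Scamp5 had also been among the 7 falls of the low-dose comparison, and they fell by 1.53 and 0.96 in the combination against low-dose semaglutide (adjusted p = 0.000261 and 0.000182 in edgeR).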

How the data were processed

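The authors deposited a table of raw read counts per gene, without normalization, from livers of 56 mice (stranded mRNA kit). Their processing notes name Trim Galore 0.6.4, Salmon 1.9.0 and GRCm38, and their methods name STAR. How reads were counted on genes, and whether strand was used, is not given in the sources used here. Samples were grouped by their labels. The 14105 genes that had at least 5 reads in at least 3 mice entered 1 edgeR 4.0.16 quasi-likelihood fit of all 7 groups (R 4.3.3, TMM, two-sided, Benjamini-Hochberg over 14105 genes, threshold 0.05). Fold changes carry standard errors from this fit, and log2 CPM a prior count of 2. Where no tool is named beside a p-value, it is edgeR's; the alternative was DESeq2 1.42.0. CPM values used TMM library sizes. Steps were tested on simulated data.

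Members and gene lists were chosen with earlier results of these data known. The genes named were the members, their paralogs, the 4 largest changes past the threshold per list, the most similar genes, and the neighbors of the choice. Alternatives were DESeq2, its size factors, other filters, the number series as covariate, only the compared groups, and each mouse left out. No pair of mice within a group agreed within counting noise (lowest chi-square over its degrees of freedom, 7.93). Labels give each mouse its own number, so p-values measure the spread between mice. Intervals cover no bias of alignment. Only counts were analysed, and protein sequences were not used. Of the genes ranked by correlation, 1 is not reported here.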

Additional observations from a re-analysis of the deposited data

Results flagged for a closer look

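In 2 of the 21 combinations of a member and a group, 1 mouse lay far from the other 7, which chance gives in about 1 of 20 groups of normally distributed values. The values used were CPM without a log, and both mice were the highest of their group. Chow mouse 2 had 26.5 CPM of Cyp17a1, and the next highest chow mouse 13.05 CPM. Chow mouse 3 had 15.7 CPM of Unc119, and the next highest 9.07 CPM. They are different mice, and neither is the chow mouse with the lowest correlation to its group, mouse 8.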

How the results depend on the processing

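Leaving out each mouse in turn, 28 of 1032 values of a member changed their side of the threshold and no called value changed sign. The 1032 include 24 values per member of low-dose zalfermin minus vehicle, which were not tested and have no side of the threshold. Lowest and highest values were 0.44 and 0.72 for Ctps in the combination minus chow, -0.87 and -0.57 for Ctps in the combination minus low-dose semaglutide, -0.77 and -0.56 for Ctps and 1.20 and 1.66 for Cyp17a1 in high-dose zalfermin minus high-dose semaglutide, -0.75 and -0.50 for Ctps and -0.80 and -0.64 for Unc119 in high-dose minus low-dose zalfermin, and 0.92 and 1.42 for Cyp17a1 in high-dose semaglutide minus vehicle. For the last, edgeR adjusted p ran from 0.0197 to 0.207, and the call was lost without vehicle mouse 1, 2, 4, 5, 6 or 7, high-dose semaglutide mouse 1, 2, 3, 4, 5 or 6, or low-dose semaglutide mouse 1, 4 or 7. It was also lost with DESeq2's size factors (1.23), no filter beyond 1 read (1.24) and only the groups compared (1.25). Fitting only the groups compared also ended the Ctps calls in the combination minus low-dose semaglutide (-0.75, adjusted p = 0.0787) and minus chow (0.55, adjusted p = 0.0744), with fewer mice to estimate the spread. Cyp17a1 in high-dose zalfermin minus high-dose semaglutide passed with DESeq2's Wald test (1.34) and with the number series as covariate (1.37). No other setting ended or added a call for a member, the stricter filter included. Of the 4 closest genes, 2 remained for Cyp17a1 and 2 for Unc119 without chow, and 2 for Unc119 with Spearman's correlation. Over all genes, DESeq2 called 211 against edgeR's 66 in low-dose zalfermin minus vehicle, 143 against 63 in high-dose zalfermin minus high-dose semaglutide, 516 against 343 in high-dose semaglutide minus vehicle and 176 against 71 in the combination minus high-dose zalfermin. The mouse numbers in the labels are not shared between groups, and no label says that neighboring numbers mark a shared cage, batch or day. No paired analysis was therefore made, and the number series served only as a covariate and for differences within a series. The cause of these changes was not tested. Depth limits all 3 genes, with as few as 17 reads of Cyp17a1, 19 of Ctps and 28 of Unc119 in a mouse. For Cyp21a1, whose fits without each mouse were added after the data were seen, the call in the combination minus low-dose semaglutide was lost without 1 mouse.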

Other observations

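Other cell types of the liver were read through marker lists in the same 2 comparisons, the combination minus low-dose semaglutide and high-dose zalfermin minus vehicle. Of all genes, 4.21% passed in the first and 17.2% in the second. Of 6 Kupffer cell markers, 0 passed in the first (0 at an unadjusted p under 0.05, 0 by DESeq2) and 1 rose in the second. Of 6 sinusoidal endothelial markers, 1 fell in the first, where 4 had an unadjusted p under 0.05, against 17.6% of all genes. Their summed level had a median of 188 CPM in the combination and 231 CPM under low-dose semaglutide. In the second comparison 0 of them passed by edgeR or DESeq2, with 0 at an unadjusted p under 0.05. Of 5 cholangiocyte and 8 lymphocyte markers, 0 passed in either comparison by edgeR or DESeq2, with 0 at an unadjusted p under 0.05.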
